A study of Homo sapiens with 6 samples.

Results

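Glycolytic enzymes and other target genes of the hypoxia-inducible factors (HIF) were followed in HK-2 cells, an immortalized line of human renal proximal tubular epithelium, with and without phosphoramidon, an inhibitor of zinc metalloproteases such as neprilysin and endothelin-converting enzyme. A list of 37 genes was used, named by membership in the pathway with no threshold on measured values, although earlier results of these data were known when it was drawn up: 18 glycolytic enzymes, 17 other HIF targets and the 2 HIF alpha subunits HIF1A and EPAS1. All 37 were among the 38126 gene IDs in the files and passed the filter on low values that left 16175 tested genes. RNA sequencing libraries came from 3 samples labelled untreated and 3 labelled as treated with phosphoramidon for 24 h. The treatment label of the untreated samples states no time, and they were taken as 24 h samples too. Cells of both groups were kept without serum in a keratinocyte medium that held epidermal growth factor and pituitary extract, in 5% CO2, and were treated near confluency. The labels give neither a dose nor the oxygen level, and the titles of the untreated samples carry the unexplained letters CSE. Nothing in the labels says that the 3 samples of a group came from separate cultures, so the p-values measure only the spread between these libraries. HK-2 is a single immortalized line, which limits it as a model of the tubule.

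Glycolysis turns glucose into pyruvate in the cytosol, and lactate dehydrogenase then reduces pyruvate to lactate when mitochondria do not take it up. The HIF alpha subunits are hydroxylated by oxygen-dependent prolyl hydroxylases and degraded. When they escape this, they pair with ARNT and raise the transcription of many glycolytic enzymes, of angiogenic factors, of collagen hydroxylases and of mitophagy genes. The proximal tubule in the kidney burns mainly fatty acids and makes glucose, whereas cultured tubular lines depend on glycolysis.

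The letters ACGTG, the core through which HIF binds DNA, were searched on both strands in promoters of 300 bases, 250 before and 50 after the start site, from RefSeq (GRCh38.p14). An entry was matched for 33 of the 37 genes; VEGFA, NDRG1, BNIP3L and HILPDA had none. The letters were present in 14 of these 33 promoters (42.4%) and in 21.4% of all 35116 promoters of that length. The 14 windows of 29 bases are shown because they hold the letters of the HIF core. Capitals mark ACGTG, or its reverse complement CACGT where the match lies on the other strand. A run of CACGTG marks matches on both strands, which is also the E-box read by other factors.
HK2, chr2:74834067-74834095, plus strand: aatgggcgtgcgCACGTcactgatccgga
ALDOA, chr16:30064089-30064117, plus strand: ccttcccctccaCACGTcaacgattctat
ALDOC, chr17:28576907-28576935, minus strand: ccccggaggagtCACGTagctctgcgaca
ENO2, chr12:6914450-6914478, plus strand: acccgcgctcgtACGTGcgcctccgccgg
LDHA, chr11:18394478-18394506, plus strand: cgtgggttcccgCACGTccgccggccccc
BNIP3, chr10:131982040-131982068, minus strand: cgcacgcgccgCACGTGccacacgcaccc
EGLN1, chr1:231422288-231422316, minus strand: cgcggggccgtggtgtACGTGcagagcgc
P4HA1, chr10:73096936-73096964, minus strand: tgtgatcgagctCACGTagcgagggctgc
PLOD2, chr3:146161314-146161342, minus strand: caaacagtccagACGTGgggcccaggagg
GPI, chr19:34364818-34364846, plus strand: acactgcctgtaACGTGgaaggtgttcga
CA9, chr9:35673898-35673926, plus strand: tcgtttccaatgCACGTacagcccgtaca
GAPDH, chr12:6535172-6535200, plus strand: ctctgcggggtCACGTGtcgcagaggagc
PGK1, chrX:78104053-78104081, plus strand: aaacggaagccgCACGTctcactagtacc
ANKRD37, chr4:185396686-185396714, plus strand: cagtgtttgtgtACGTGcggccgtggcgg
The first 9 genes were higher after phosphoramidon, GPI and CA9 were lower, and GAPDH, PGK1 and ANKRD37 were not called, with the values given further on.

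By call, ACGTG was in the promoter of 9 of the 12 matched genes that were higher, 2 of the 7 that were lower and 3 of the 14 that were not called. The 9 include ALDOC, which passed the filter only through its phosphoramidon libraries, and ALDOA, whose listed level cannot be read as that of its mRNA. The share by call was not taken over all tested genes, so the split has no background to be set against. The higher genes without it were PFKL and KDM3A, which held the other core form, GCGTG, and P4HA2, which held neither. By role it was in 8 of 18 enzyme promoters, 6 of 13 promoters of other targets and neither promoter of the alpha subunits. GCGTG was in 15 of 33 promoters, against 36.5% of all promoters: 7 of the 12 higher genes, 2 of the 7 lower and 6 of the 14 not called. By role it was in 9 of 18 enzyme promoters, 4 of 13 promoters of other targets and both promoters of the alpha subunits. CACGTG was in 5 of 33, against 7.26% of all. These shares are a description of the letters in 1 window per gene and were not tested, and they do not show which sites were bound.

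Levels are given as FPKM, fragments per kilobase of transcript and per unit of library depth, which are scaled per length and can be compared between genes. Fragments were recovered from these values, and the library totals ran from 18690100 to 24919568, so that 1 fragment on a gene of 1 kb was worth 0.0401 to 0.0535 FPKM. Changes are log2 fold changes, phosphoramidon against untreated, from limma on log2(FPKM + 0.1) after scaling between libraries, and a gene was called where the adjusted p (Benjamini-Hochberg over 16175 genes) was below 0.05. The added 0.1 understates the change of genes at low levels. The scaling lowered each fold change by about the shift in the median of all tested genes, which was 0.07 as deposited and 0.01 after scaling. Of all tested genes 33.6% were called, 2529 higher and 2904 lower, or 3647 higher and 2169 lower without the scaling. Principal component 1, with 55.8% of the variance, put the untreated libraries on one side and the phosphoramidon libraries on the other. Of 20 proximal tubule markers only 5 reached 1 FPKM in any library, led by PAX8 (61.5 to 71.7) and DPP4, while SLC22A6 and SLC22A8 were at 0 in every library and LRP2, CUBN and HNF4A stayed below 0.1. The summed level of keratin and junction markers was 330 to 367 FPKM in untreated and 201 to 215 in phosphoramidon libraries. The fall lay in the keratins, with mean KRT19 going from 203 to 94.2 FPKM and KRT8 from 80.4 to 56.8. EPCAM (26.9 to 26.45) and CDH1 (0.391 to 0.501) did not share it. The sum of 7 fibroblast and mesangial markers was 60.9 to 65.7 against 23.5 to 24.9 FPKM. Nearly all of it was LUM (mean 53.0 to 19.9) and COL1A1 (10.1 to 4.12). The part of these markers in the results was not tested. Endothelial and immune marker sums were at most 0.895 FPKM in every library. In these bulk libraries of the HK-2 line, fewer cells that express a marker and less of its RNA per cell cannot be told apart.

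Phosphoramidon moved the 37 genes in both directions, most of them by small amounts. The HIF targets IGFBP3, LOX and STC2 of a further list, described below, fell by more (log2 fold changes -1.35, -1.17 and -1.15). BNIP3, BNIP3L, HK2, ENO2, PLOD2, PFKL, KDM3A, EGLN1, P4HA2 and LDHA were higher, whereas PGAM1, PFKFB3 and EPAS1 were lower. GPI was also called lower, but that call held in only 10 of 16 alternative fits. In all, 14 of the 37 were higher, 7 lower and 16 not called (56.8% called, against 33.6% of all tested genes, 15.6% higher and 18% lower). Called genes tend to be abundant ones: among the 4612 tested genes with a mean of at least 1000 fragments 47.5% were called (21% higher and 26.5% lower), and of the 28 HIF and glycolysis genes at that level 12 were higher and 6 lower (64.3%). ALDOC passed the filter only through its phosphoramidon libraries, and without it 13 of 36 were higher. These still include ALDOA, whose listed level cannot be read as that of its mRNA. The median log2 fold change of the 37 was 0.09, against 0.01 over all tested genes, and the middle 50% of all tested genes ran from -0.19 to 0.19. None of the 37 exceeded a change of 1.5-fold by limma's treat test, which 0.804% of tested genes did (0.148% higher and 0.655% lower); with voom the count was also 0, and at an unadjusted p below 0.05 it was 1 in each fit (ALDOC in the fit without voom).

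**Figure D1:**
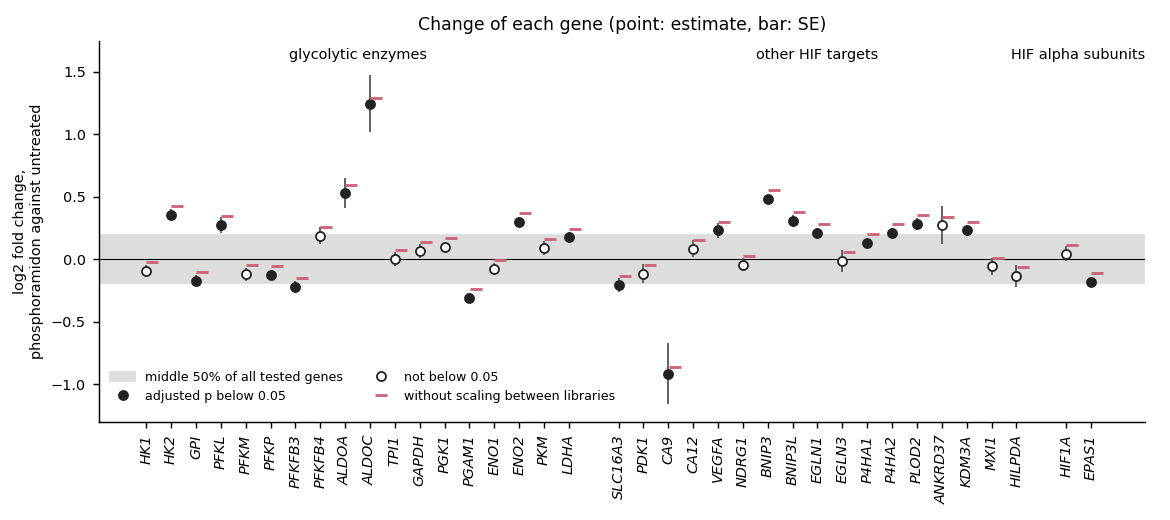
Log2 fold change of each of the 37 genes, phosphoramidon against untreated, with its SE; filled points had a limma adjusted p below 0.05, red ticks are the values without scaling between libraries and the grey band holds the middle 50% of all tested genes (-0.19 to 0.19). Without scaling the signs of NDRG1, EGLN3 and MXI1, none of them called, turned from negative to positive.

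Among the kinases that open glycolysis, the hexokinases phosphorylate glucose. HK2, the HIF-inducible isoform (ENSG00000159399, GRCh38 chr2:74833981-74893359), measured 11.6, 11.4 and 10.99 FPKM in the untreated libraries and 15.3, 15.2 and 15.2 in the phosphoramidon libraries. The groups did not overlap, which after scaling held for 48% of all tested genes (23.8% higher and 24.2% lower), and the phosphoramidon libraries lay within 1 FPKM of each other. HK2 rose by 0.36 ± 0.04 (log2, SE; limma adjusted p = 4.4e-04). HK1, the housekeeping isoform, stood at 39.8 to 42.7 and 39.5 to 41.8 FPKM, groups that overlapped, and was not called (-0.09).

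GPI, which converts glucose-6-phosphate to its fructose isomer, was 26.9, 25.5 and 25.6 FPKM in untreated and 24.8, 23.7 and 24.4 in phosphoramidon libraries. Its groups lay apart by less than 1 FPKM, and it fell by 0.17 on the log2 scale (limma adjusted p = 0.020). The call ended in 6 alternatives, among them leaving out untreated replicate 1 (limma adjusted p = 0.061) or phosphoramidon replicate 2 (0.076) or 3 (0.054).

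The phosphofructokinases catalyse the committed step, and their 3 genes did not move together. PFKL, the liver form, was 9.89, 9.31 and 8.46 FPKM in untreated and 11.9, 11.3 and 12.02 in phosphoramidon libraries. All phosphoramidon libraries were above all untreated ones, and PFKL rose by 0.28 ± 0.06 (log2, SE; limma adjusted p = 0.011). PFKP, the platelet form and the most abundant here, was 58.7 to 61.0 FPKM untreated and 56.1 to 59.0 with phosphoramidon. Its deposited values overlapped between groups and its scaled values did not; it was called lower at -0.13 (limma adjusted p = 0.048), a call that ended in 9 alternatives, among them leaving out any 1 library but phosphoramidon replicate 1 (0.064 to 0.14). PFKM, the muscle form, overlapped at 10.3 to 11.6 and 10.4 to 10.8 FPKM and was not called.

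PFKFB3 and PFKFB4 encode bifunctional enzymes that set the level of the sugar bisphosphate that activates phosphofructokinase, and both are known HIF targets. PFKFB3 was 41.8, 42.3 and 38.7 FPKM in untreated and 37.4, 36.2 and 37.0 in phosphoramidon libraries. Its groups did not overlap, and it fell by 0.22 on the log2 scale with an SE of 0.04 (limma adjusted p = 0.0058). PFKFB4 was 6.33, 7.17 and 6.14 against 8.12, 7.44 and 7.98 FPKM, also without overlap but in the other direction, at a log2 fold change of 0.19 that missed the threshold (limma adjusted p = 0.056). PFKFB4 was called in 4 alternatives, among them the values without scaling between libraries and the set without untreated replicate 2. A test of the difference between the 2 genes was not made.

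The aldolases split the hexose bisphosphate into trioses. ALDOA was listed at 2.59, 2.38 and 1.98 FPKM in untreated and 3.05, 3.79 and 3.82 in phosphoramidon libraries, groups that did not overlap, and rose by 0.53 ± 0.12 (log2, SE; limma adjusted p = 0.0098). Its level ranked 9292 of 16175 tested genes, whereas TPI1, the next enzyme, ranked 80. In the GENCODE 29 annotation 53.5% of the exon bases of ALDOA (chr16:30064164-30070457) also belong to exons of other genes, 42.3% to AC093512.2 on the same strand, and the level can therefore not be read as that of aldolase A mRNA. ALDOC, the brain form, was 0.114, 0.110 and 0.0309 FPKM untreated and 0.410, 0.307 and 0.313 with phosphoramidon. These values rest on 2 to 20 fragments per library; the log2 fold change of 1.25 ± 0.23 (SE; limma adjusted p = 0.0036) ran from 0.30 at a pseudocount of 1 to 2.01 with voom on recovered fragments.

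The triose steps held the most abundant of the 18 enzymes, and of TPI1, GAPDH, PGK1, PGAM1 and PKM only PGAM1 was called. Of all tested genes with a mean of at least 1000 fragments, 47.5% were called. LDHA, which ranked 81 by untreated level beside TPI1 at 80, lies outside these steps and was called higher. GAPDH, which oxidizes glyceraldehyde phosphate, was 1199.6, 1081.4 and 1137.4 FPKM in untreated and 1258.2, 1237.2 and 1267.4 in phosphoramidon libraries, apart as deposited but overlapping after scaling (log2 fold change 0.07, not called). TPI1, which interconverts the trioses, overlapped at 246 to 275 and 263 to 292 FPKM, and its fold change of 0.01 turned to -0.01 with scaling factors over all genes. PGK1, which makes the first ATP, was 156.7 to 158.3 FPKM untreated and 170.2 to 183.6 with phosphoramidon, without overlap and not called at 0.10 (limma adjusted p = 0.11). PKM, pyruvate kinase, was 311 to 344 against 353 to 385 FPKM, apart as deposited and overlapping after scaling, and was not called. GAPDH, PGK1 and PKM were each called higher without scaling between libraries.

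PGAM1, phosphoglycerate mutase (ENSG00000171314, chr10:97426160-97433441), went the other way. It was 473.8, 460.6 and 457.6 FPKM in untreated and 391.0, 384.2 and 404.6 in phosphoramidon libraries. The gap between the groups was wider than the range of either, and PGAM1 fell by 0.31 on the log2 scale with an SE of 0.04 (limma adjusted p = 6.8e-04). It ranked 40 of 16175 genes by untreated level, next to ENO1 at 35.

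The enolases follow it. ENO1, the common form, overlapped at 492 to 531 and 496 to 528 FPKM and was not called. ENO2, the neuronal form and a known HIF target, was 23.9, 25.003 and 24.7 FPKM in untreated and 32.1, 30.4 and 32.6 in phosphoramidon libraries. Its groups did not overlap, and it rose by 0.30 ± 0.04 (log2, SE; limma adjusted p = 8.5e-04).

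LDHA, the lactate dehydrogenase subunit that favours lactate, was 261.4, 256.0 and 264.0 FPKM untreated and 314.7, 306.2 and 306.7 with phosphoramidon. All phosphoramidon libraries were above all untreated ones, and LDHA rose by 0.18 ± 0.04 (log2, SE; limma adjusted p = 0.010). SLC16A3, the HIF-responsive transporter that exports lactate, was 11.6, 11.6 and 10.3 FPKM against 9.90, 10.4 and 10.2. The deposited values overlapped through untreated replicate 3, the scaled ones did not, and the call at -0.20 (limma adjusted p = 0.025) ended in 7 alternatives, among them leaving out untreated replicate 1 (0.086) or 2 (0.081) or phosphoramidon replicate 1 (0.065) or 3 (0.067). PDK1, the kinase that holds pyruvate dehydrogenase off, overlapped at 2.58 to 2.90 and 2.57 to 2.76 FPKM and was not called.

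**Figure D2:**
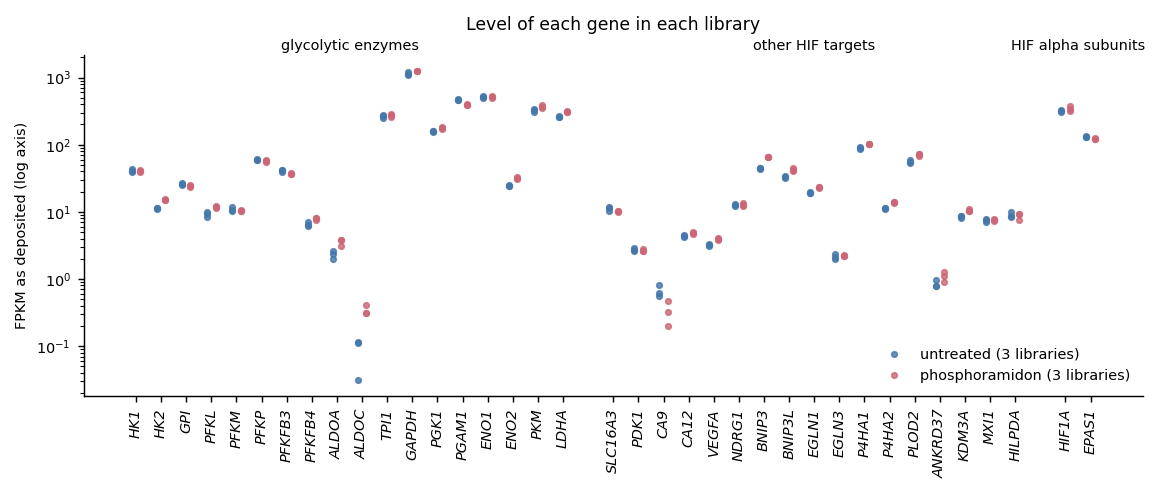
Level of each of the 37 genes in each library as deposited FPKM on a log axis, with 3 untreated points (blue) and 3 phosphoramidon points (red) per gene, in pathway order. Levels span from ALDOC below 0.5 FPKM to GAPDH above 1000 FPKM, and the 2 groups lie close together for most genes.

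Of the other HIF targets, the mitophagy receptors moved most clearly. BNIP3 (ENSG00000176171, chr10:131966455-131982013) was 43.4, 44.7 and 44.3 FPKM in untreated and 65.2, 64.6 and 64.7 in phosphoramidon libraries. The groups lay far apart, each spanned less than 2 FPKM, and BNIP3 rose by 0.48 ± 0.03 (log2, SE; limma adjusted p = 3.8e-05). BNIP3L, its paralog also called NIX, was 31.6, 32.8 and 33.9 against 41.3, 44.9 and 41.6 FPKM, again without overlap, and rose by 0.31 ± 0.05 (log2, SE; limma adjusted p = 0.0014). Processed pseudogenes of BNIP3 held 0.901 to 1.46% of the fragments given to it and them.

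The 3 genes of collagen modification among the 37 were all called higher, where 15.6% of all tested genes were. LOX, the collagen cross-linking oxidase of a further list, was called lower at -1.17 (log2 fold change). PLOD2, a lysyl hydroxylase, was 53.2, 55.5 and 58.6 FPKM untreated and 68.1, 73.2 and 72.6 with phosphoramidon, at a log2 fold change of 0.28 (limma adjusted p = 0.0019). P4HA2, a prolyl hydroxylase subunit, was 11.4, 11.2 and 11.2 against 13.8, 13.9 and 13.5 FPKM, at 0.21 (limma adjusted p = 0.0068). P4HA1, its more abundant paralog, was 86.7, 88.3 and 92.2 against 103.2, 102.7 and 101.0 FPKM, at 0.13 (limma adjusted p = 0.035). None of the 3 overlapped between groups, and after scaling 23.8% of all tested genes were higher without overlap. The P4HA1 call ended in 8 alternatives. Among these were 2 other ways of scaling between libraries (limma adjusted p = 0.057 and 0.051) and leaving out untreated or phosphoramidon replicate 1 or 2 (0.066 to 0.097).

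The prolyl hydroxylases of the EGLN family mark HIF alpha for degradation and are themselves HIF targets. EGLN1, the main oxygen sensor, was 18.8, 19.1 and 19.6 FPKM in untreated and 23.4, 23.0 and 23.7 in phosphoramidon libraries. The groups did not overlap and EGLN1 rose by 0.21 (limma adjusted p = 0.0033). EGLN3 was low and overlapped at 2.01 to 2.32 and 2.18 to 2.27 FPKM, with a log2 fold change of -0.01 that turned to 0.06 without scaling. KDM3A, a histone demethylase induced by hypoxia, was 8.18, 8.62 and 8.66 against 10.2, 10.4 and 10.9 FPKM and rose by 0.23 (limma adjusted p = 0.0049). Both called genes kept the call in all 16 alternatives.

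VEGFA, the angiogenic growth factor, was 3.12, 3.28 and 3.16 FPKM in untreated and 3.82, 3.97 and 4.06 in phosphoramidon libraries. Its groups did not overlap, it rose by 0.23 (limma adjusted p = 0.017), and the call ended without phosphoramidon replicate 2 (limma adjusted p = 0.057) or 3 (0.051). The carbonic anhydrases, which handle acid at the cell surface, differed in sign. CA9, often used as a marker of HIF activity, was only 0.556, 0.614 and 0.802 FPKM untreated and 0.466, 0.200 and 0.318 with phosphoramidon, on 8 to 32 fragments per library. CA9 did not overlap between groups and was called at -0.92 ± 0.25 (log2, SE; limma adjusted p = 0.021). The call ended without untreated replicate 3 (limma adjusted p = 0.063) or phosphoramidon replicate 2 (0.053), and the fold change ran from -0.34 at a pseudocount of 1 to -1.15 with voom. Of its exon bases 38.5% are shared with ARHGEF39 on the opposite strand, which went from 0.860 to 1.24 FPKM, and the strand setting of the counting is not given in the sources used here. CA12, apart as deposited and overlapping after scaling, was 4.16 to 4.54 against 4.73 to 5.06 FPKM and was not called.

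Several classical targets were not called. NDRG1, a stress gene widely used to score hypoxia, was 12.1 to 12.9 and 12.3 to 13.4 FPKM, with a log2 fold change of -0.04 that turned to 0.03 without scaling. HILPDA, a lipid droplet protein, was 8.37 to 10.04 and 7.66 to 9.21 FPKM. MXI1, a MYC antagonist, was 7.01 to 7.94 and 7.40 to 7.72 FPKM, at -0.06 scaled and 0.01 unscaled. ANKRD37 was 0.775 to 0.968 and 0.902 to 1.28 FPKM, its log2 fold change of 0.28 carrying an SE of 0.15. The groups of all 4 overlapped.

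The alpha subunits themselves were abundant at the RNA level. HIF1A was 306.9, 313.5 and 328.5 FPKM in untreated and 323.2, 372.7 and 335.6 in phosphoramidon libraries, overlapping, with a log2 fold change of 0.05 that was not called and turned to -0.01 without phosphoramidon replicate 2. EPAS1, which encodes HIF2 alpha, was 137.0, 129.9 and 131.0 against 124.4, 122.7 and 121.9 FPKM. Its groups lay apart and it fell by 0.18 on the log2 scale (limma adjusted p = 0.012), a call that ended when the prior was fitted with neither trend nor robustness (0.053). HIF activity is controlled mainly at the protein level, which was not measured.

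Both the enzymes and the other targets held genes called in each direction. Over all tested genes 33.6% were called, 15.6% higher and 18% lower. Of the 18 enzymes 6 were higher, 4 lower and 8 not called, and their median was 0.08 on the log2 scale (5 of 17 higher and a median of 0.07 without ALDOC). Both counts of higher enzymes include ALDOA, whose listed level cannot be read as that of its mRNA. Of the 17 other targets 8 were higher, 2 lower and 7 not called, with a median of 0.13. Both medians lay inside the middle 50% of all tested genes, and the difference between the lists was not tested. Without scaling between libraries the enzymes were 10 higher and 2 lower, where 3647 of all tested genes were higher and 2169 lower. Counting PFKFB3 and PFKFB4 with the other targets and PDK1 and SLC16A3 with the enzymes left all 4 counts as they were. Leaving out any 1 library left 1 of the 17 other targets lower, SLC16A3 or CA9, and leaving out untreated replicate 1 or phosphoramidon replicate 2 or 3 left 2 enzymes lower. Sums of levels were taken from FPKM as deposited, without scaling between libraries. The scaling factors were 0.964 to 0.990 in untreated and 1.01 to 1.04 in phosphoramidon libraries. Division by them would raise the untreated sums and lower the phosphoramidon sums. The summed level of the enzymes was 3359 ± 96.4 FPKM in untreated and 3532 ± 67.3 in phosphoramidon libraries (SD, n = 3), and 1 untreated library lay above 1 phosphoramidon library. That of the other targets was 315 ± 6.24 against 383 ± 2.99 FPKM (SD, n = 3), without overlap, and P4HA1, PLOD2, BNIP3 and BNIP3L held most of it.

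Within isozyme families the composition shifted, a measure that does not depend on scaling between libraries. HK2 made up 7.83 to 8.03% of the summed FPKM of HK1, HK2 and HKDC1 in untreated libraries and 12.5 to 12.9% in phosphoramidon libraries. HKDC1, the hexokinase-like enzyme that is the most abundant of the 3 here, went from 62.6 to 64.0% down to 52.5 to 55.0%. HK1, which was not called, went from 28.2 to 29.4% up to 32.5 to 34.6%. The groups did not overlap for any of the 3, and a fall of HKDC1 by itself raises the shares of the others. Without HKDC1, HK2 made up 21.3 to 21.7% of HK1 and HK2 in untreated and 26.9 to 27.9% in phosphoramidon libraries. PFKL took 11.5 ± 0.601% of the phosphofructokinase total untreated and 14.7 ± 0.520% with phosphoramidon, and PFKP 74.8 ± 0.920% and 72.1 ± 0.562% (SD, n = 3).

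ENO2 made up 4.30 to 4.77% of the summed FPKM of ENO1 and ENO2 in untreated and 5.74 to 5.97% in phosphoramidon libraries. ENO3, at a mean of 3.04 FPKM untreated and 1.51 with phosphoramidon, was not counted in. PFKFB4 made up 13.1 to 14.5% of the PFKFB3 and PFKFB4 total and then 17.05 to 17.8%. EPAS1 made up 28.5 to 30.9% of the alpha subunits and then 24.8 to 27.8%. In each of these 3 pairs the minor form stayed minor, with a larger share of ENO2 and PFKFB4 and a smaller one of EPAS1 in every phosphoramidon library. With 3 libraries against 3 an exact two-sided permutation test cannot go below p = 0.1, and none was made on the shares.

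**Figure D3:**
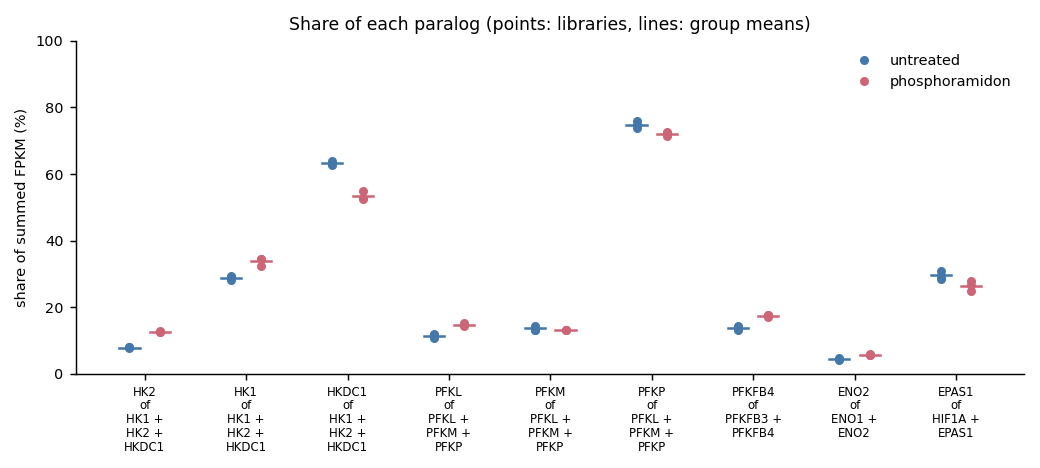
Share of each paralog in the summed FPKM of the genes named under it, one point per library and a line at the group mean. HK1, HK2, PFKL, PFKFB4 and ENO2 take a larger share, and HKDC1, PFKP and EPAS1 a smaller one, in every phosphoramidon library than in any untreated library; the PFKM groups overlap.

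The remaining enzymes of glycolysis and lactate metabolism were given by a further list, of which 11 of 20 were tested, 2 higher and 4 lower (54.5% called, against 33.6% of all tested genes). HKDC1 went from 90.0 ± 3.59 to 64.2 ± 2.58 FPKM (SD, n = 3) and fell by 0.56 on the log2 scale (limma adjusted p = 5.3e-05). ENO3, the muscle enolase, fell by 1.03 (limma adjusted p = 1.4e-04), and PFKFB2 by 0.63 (limma adjusted p = 7.2e-04). MINPP1, a phosphatase of inositol and glycerate phosphates, rose by 0.52 (limma adjusted p = 5.3e-05). The remaining called genes, named after their values were seen, were BPGM at 0.47 and LDHB, the subunit that favours pyruvate, at -0.32.

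Among 14 genes of pyruvate entry into mitochondria 4 were higher and 1 lower (35.7% called, near the 33.6% of all tested genes). MPC1, a subunit of the mitochondrial pyruvate carrier, went from 2.002 ± 0.220 to 3.43 ± 0.231 FPKM (SD, n = 3; log2 fold change 0.68, limma adjusted p = 0.0012). PDK3, which inhibits pyruvate dehydrogenase, rose by 0.43, whereas PDK4, which does the same, fell by 0.35. PDP1, the phosphatase that activates the complex, rose by 0.18, and PDPR, its regulatory subunit, by 0.23. Of these called genes MPC1 belongs to the carrier, and PDK3, PDK4, PDP1 and PDPR act on the pyruvate dehydrogenase complex.

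In the side branches, 2 of the 8 pentose phosphate genes were higher and 2 lower (50% called). Over all tested genes 33.6% were called, 15.6% higher and 18% lower. PGD, a dehydrogenase of the oxidative arm, rose by 0.31 (limma adjusted p = 0.0016). TKT and TALDO1, of the non-oxidative arm, fell by 0.23 and 0.25 (limma adjusted p = 0.0066 and 0.0043). Of 10 glycogen genes 3 were higher and 4 lower (70% called, against 33.6% of all tested genes). PGM1, the main phosphoglucomutase, fell by 0.42, PYGL and PYGB, glycogen phosphorylases, fell by 0.31 and 0.26, and PGM2 rose by 0.31. GBE1 (0.18) and UGP2 (-0.17) were named after their values were seen. Of 7 gluconeogenesis genes 4 were tested, and PCK2, the mitochondrial carboxykinase, was the 1 called (25%, against 33.6%), at -0.49. PCK1 and FBP1, which mark the glucose-making proximal tubule, did not pass the filter.

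Of the HIF partners and regulators 16 of 17 were tested, 3 were higher and 1 lower (25% called, below the 33.6% of all tested genes). ARNT2, an alternative partner of the alpha subunits, was at only 0.374 and 0.625 FPKM (log2 fold change 0.56, limma adjusted p = 0.021). EP300, a coactivator, rose by 0.30, and LIMD1, a scaffold of the degradation complex, by 0.24. BMAL1, a related partner protein best known from the circadian clock, fell by 0.34. ARNT, VHL and the remaining 10 tested genes were not called.

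A further list of 46 HIF targets, 41 of them tested, went in both directions: 9 were higher, 13 lower and 19 not called. That is 53.7% called, against 33.6% of all tested genes (15.6% higher and 18% lower), and the median was 0.00 (log2 fold change). The 3 targets past 1.5-fold by treat were all lower. Of all tested genes 0.804% passed it, 0.148% higher and 0.655% lower. IGFBP3, a binding protein of insulin-like growth factors, went from 49.3 ± 1.35 to 20.3 ± 0.291 FPKM (SD, n = 3) and fell by 1.35 on the log2 scale (limma adjusted p = 1.4e-06). LOX, the collagen cross-linking oxidase, fell by 1.17 (limma adjusted p = 4.3e-06), and STC2, a secreted glycoprotein, by 1.15 (limma adjusted p = 3.0e-06). CCNG2, an atypical cyclin, rose by 0.44 (limma adjusted p = 1.3e-04). SLC2A1, the main glucose transporter, was named after its values were seen: it went from 53.0 ± 1.84 to 49.5 ± 1.37 FPKM (SD, n = 3) and was called lower at -0.17 (limma adjusted p = 0.017).

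**Figure D4:**
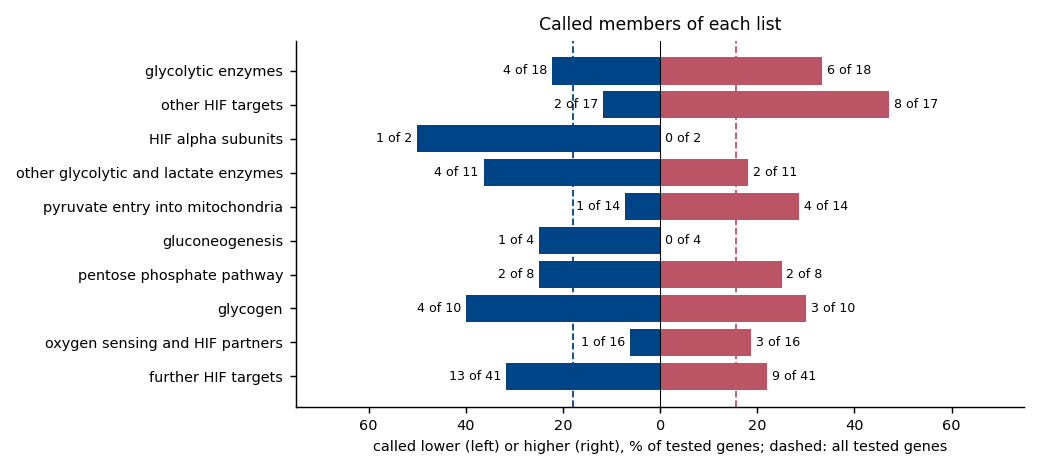
Percent of the tested genes of each list that were called lower (left, blue) or higher (right, red), with counts beside the bars; dashed lines mark the shares over all tested genes, 18% lower and 15.6% higher. The other HIF targets have 8 of 17 higher, and the further HIF targets 13 of 41 lower.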

How the data were processed

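RNA of 3 untreated and 3 phosphoramidon samples of HK-2 cells was measured as FPKM per gene, as the authors deposited it, with 1 table per sample. The tools listed, per the submitters' processing notes and with no settings, are featureCounts 1.6.0, HISAT2 2.1.0, Trimmomatic 0.38, DESeq2 1.22.1, CASAVA and the reporters FastQC and MultiQC, and the build is GRCh38. The annotation or strandedness is not given in the sources used here. FPKM were turned back into whole fragments from the step between low values and exon lengths: 79.2% of genes came out whole (tolerance 0.05) at the GENCODE 29 length, and the rest at a searched length, which has no independent check. Genes with at least 10 fragments in at least 3 libraries were tested (16175), after TMM scaling over these genes, with limma 3.58.1 in R 4.3.3 (trended robust prior, group only) on log2(FPKM + 0.1). Benjamini-Hochberg adjustment ran over all of them at a threshold of 0.05, and treat was used against a change of 1.5-fold. Every gene of the 37 is named; from each further list, the called genes with the 4 lowest p-values, and every called gene where 5 or fewer were called. Some genes of the further lists are counted but not reported here by name. The 37 genes and the lists were chosen with earlier results of these data known. Symbols came from reference tables, which matched 37892 of 38126 IDs. The routines were tested on simulated data. Fragment numbers limit the precision for counting error only.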

Additional observations from a re-analysis of the deposited data

How the results depend on the processing

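The calls of HK2, PFKFB3, PGAM1, ENO2, LDHA, BNIP3, BNIP3L, EGLN1, P4HA2, PLOD2 and KDM3A held in all 16 alternatives, and no called gene of the 37 changed sign in any of them. The cause of the changes below was not tested. Signs turned only for genes that were not called: NDRG1 (0.030), EGLN3 (0.056) and MXI1 (0.014) with FPKM as deposited, TPI1 with TMM factors over all genes (-0.011, an alternative chosen after seeing the data) and with median-of-ratios factors (-4.9e-04). Leaving out 1 library at a time, EGLN3 ran from -0.068 to 0.059 (positive without untreated replicate 1), TPI1 from -0.041 to 0.042 (negative without untreated replicate 3 or phosphoramidon replicate 1) and HIF1A from -0.011 (without phosphoramidon replicate 2) to 0.083.

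With no filter on low values 1540 genes were higher, 63 passed 1.5-fold, the enzymes were 3 higher and 2 lower, 0 other targets were lower by limma adjusted p (2 at an unadjusted p below 0.05), and 1 gene each of the pentose phosphate, glycogen and oxygen-sensing lists was higher. A filter of 50 fragments gave 1 other target, 2 pyruvate entry genes and 3 oxygen-sensing genes lower. FPKM as deposited gave 10 enzymes higher and 2 lower, 1 other target lower and 5 glycogen genes higher. Genes past 1.5-fold were 68 at a pseudocount of 1 and 273 with voom, where 3 pyruvate entry and 4 oxygen-sensing genes were lower. TMM over all genes left 2 pyruvate entry genes lower and 1 pentose phosphate gene higher, as median-of-ratios factors did for the latter (1). The prior with neither trend nor robustness gave 2 enzymes, 1 other target and 0 alpha subunits lower (1 at an unadjusted p below 0.05) and 1 pentose phosphate gene higher. With the replicate number as a block 3 pyruvate entry genes and 2 oxygen-sensing genes were lower. Same-numbered libraries deviated together no more than differently numbered ones (r = 0.11, -0.02 and -0.01, against -0.10 to 0.12). Such correlations cannot settle whether the numbers pair the samples.

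Leaving out each library in turn gave 85 (without untreated replicate 2) to 137 genes past 1.5-fold and 2 to 4 enzymes lower. It gave 1 other target lower each time (1 to 1). In the further lists it gave 1 to 3 glycogen genes, 1 to 3 oxygen-sensing genes and 1 to 2 pentose phosphate genes higher, and 1 to 2 oxygen-sensing genes and 1 to 3 pyruvate entry genes lower. ALDOC could not be tested without any 1 phosphoramidon library, since too few libraries then held 10 fragments. Depth limits CA9, ALDOC and ANKRD37, which rest on 72 fragments or fewer per library.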

Other observations

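MIF, a cytokine gene that is a HIF target and usually abundant in cultured cells, was listed at 0 in 5 of 6 libraries and at 0.147 FPKM in phosphoramidon replicate 1, and was not tested. In GENCODE 29, 61.9% of its exon bases are shared with other genes, 32.2% with AP000350.4 on the same strand. ALDOA, with 53.5% of its exon bases shared, is the 1 gene of the 37 above 50%, and both of these genes are more abundant in most human cell lines than their listed levels here. A re-count from the reads would be needed to give their mRNA levels.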
